A study of Mus musculus with 12 samples.

Results

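Lung tumours of mice treated with entinostat together with an antibody against PD-1 were compared with control tumours by RNA-seq. The comparison rests on 6 of the 12 libraries of the series, 3 per group, chosen by the treatment named in their titles, and the level of a gene is given below as CPM, its count relative to the scaled total of the library. The mice carried Rb1 fl/fl, p53 fl/fl and Myc lsl/lsl T58A alleles, so that Cre recombinase deletes Rb1 and Trp53 and switches on a stabilised form of Myc. Tumours were induced at 8 weeks of age with Ad5CGRP-Cre, an adenovirus instilled into the airway in which the promoter of a neuroendocrine peptide gene drives Cre. The deletions and the induced Myc are therefore shared by all groups, and this RPM model yields small cell lung cancer. Combination mice are taken here to have received both agents. The doses were entinostat by mouth at 15 mg/kg daily for 28 days and the antibody by intraperitoneal injection at 10 mg/kg, given 2 times weekly for 4 weeks. For this group the labels disagree: the treatment entry lists only the antibody, whereas both agents appear in the titles. The grouping follows the titles, so entinostat treatment of this group rests on them. The single-agent groups, 3 libraries each, received entinostat alone or the antibody alone at those doses. Control mice received neither agent. The labels list methylcellulose and a rat IgG2a isotype antibody as control substances without assigning either to a given control library. RNA came from frozen, dissected tumour, so the libraries hold tumour cells together with stroma, vessels, immune cells and any adjoining lung. In such bulk RNA, fewer cells of a type and less RNA per cell cannot be told apart.

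Entinostat inhibits class I histone deacetylases, enzymes that remove acetyl groups from histone tails and that work within corepressor complexes such as REST-CoREST, NCoR and SIN3. Inhibition raises histone acetylation and can raise or lower transcription, depending on the gene. PD-1 is an inhibitory receptor of T cells, and antibodies against it release T cells from that restraint. Small cell lung cancer is a fast-dividing neuroendocrine tumour driven by loss of both suppressors, and it can lose neuroendocrine features through Notch, REST, YAP1 and MYC activity. It often expresses little MHC class I, which limits recognition by T cells.

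Among the groups of genes with many falls in combination tumours were those that act in cell division, in MYC-driven growth and in protein folding, and promoters of such genes carry known short motifs. Promoters of 5 members that fell are shown, from 250 bases before to 50 bases after the start site, as RefSeq annotates them on GRCm38.p6. In the first pair, of the mitotic kinase Cdk1 (chr10:69352863-69353162, minus strand) and the mitotic activator Cdc20 (chr4:118437294-118437593, minus strand), capitals mark TTTGAA, the cell cycle homology region, and CCAAT, the site of NF-Y, on either strand.
Cdk1: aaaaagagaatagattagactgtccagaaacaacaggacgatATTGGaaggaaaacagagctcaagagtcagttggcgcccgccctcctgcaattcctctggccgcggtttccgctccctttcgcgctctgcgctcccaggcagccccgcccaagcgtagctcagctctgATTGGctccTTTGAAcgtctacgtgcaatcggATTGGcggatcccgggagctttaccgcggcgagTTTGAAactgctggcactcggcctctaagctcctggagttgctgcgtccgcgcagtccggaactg
Cdc20: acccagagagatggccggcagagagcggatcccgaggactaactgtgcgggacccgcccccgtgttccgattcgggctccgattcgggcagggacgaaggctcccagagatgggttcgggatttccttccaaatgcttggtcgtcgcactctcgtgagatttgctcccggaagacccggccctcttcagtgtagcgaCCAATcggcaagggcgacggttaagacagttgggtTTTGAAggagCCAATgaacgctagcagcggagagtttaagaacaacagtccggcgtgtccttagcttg

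In the promoter of Cdk4 (chr10:127063285-127063584, plus strand), a cyclin-dependent kinase of G1 and a MYC target, capitals mark CACGTG, the E-box bound by MYC and MAX, which reads the same on both strands.
Cdk4: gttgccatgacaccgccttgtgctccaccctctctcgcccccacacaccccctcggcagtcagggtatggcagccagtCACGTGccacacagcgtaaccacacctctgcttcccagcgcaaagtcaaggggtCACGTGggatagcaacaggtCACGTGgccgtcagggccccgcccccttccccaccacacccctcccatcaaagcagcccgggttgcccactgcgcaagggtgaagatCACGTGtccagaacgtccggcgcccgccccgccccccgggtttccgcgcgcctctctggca

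In the promoters of Hspa5 (chr2:34771840-34772139, plus strand) and Calr (chr8:84846882-84847181, minus strand), chaperones of the endoplasmic reticulum, capitals mark the endoplasmic reticulum stress element, which is CCAAT, a spacer of 9 bases and CCACG, on either strand. This element contains a CCAAT box, so the counts of those motifs overlap.
Hspa5: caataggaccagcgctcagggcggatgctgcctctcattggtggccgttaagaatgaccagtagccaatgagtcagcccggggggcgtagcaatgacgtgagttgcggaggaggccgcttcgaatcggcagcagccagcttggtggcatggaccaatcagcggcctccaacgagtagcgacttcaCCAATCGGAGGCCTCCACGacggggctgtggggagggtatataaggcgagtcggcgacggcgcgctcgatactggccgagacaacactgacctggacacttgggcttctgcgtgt
Calr: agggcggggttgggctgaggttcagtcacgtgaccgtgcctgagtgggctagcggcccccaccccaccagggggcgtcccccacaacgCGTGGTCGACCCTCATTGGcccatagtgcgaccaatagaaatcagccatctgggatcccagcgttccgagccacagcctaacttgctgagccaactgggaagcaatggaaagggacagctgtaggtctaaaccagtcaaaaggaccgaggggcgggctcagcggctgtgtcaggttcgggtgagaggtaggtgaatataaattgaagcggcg

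The combination libraries held 31295987 to 36146798 counts each, the control libraries 40534618 to 54001886. The structural RNAs Rpph1, Rn45s and Rmrp took 17.7% to 18% of counts in combination libraries and 7.84% to 13.2% in control libraries. Control library 1 was the extreme library on the first principal component (27.2% of the variance) and combination library 3 on the second (17.4%). Xist, which is expressed in female cells, stood at 1.77, 2431 and 4953 CPM in combination libraries 1, 2 and 3, against 0.27, 0.83 and 1519 CPM in control libraries 1, 2 and 3, and the labels give no sex. Xist was thus high in some libraries of each group and near absent in others, and each library's column name holds a different number. Whether all libraries of a group are separate mice is not stated. The p-values cover only the spread among these libraries, part of which may be technical.

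Combination tumours differed from control tumours in many genes. Of 17426 genes tested, 2033 (11.7%) passed an adjusted p of 0.05, 677 of them higher in combination tumours (3.88%) and 1356 lower (7.78%). The groups did not overlap in 31.9% of genes, with combination above control in 15.2% and below in 16.7%. The smallest p-values belonged to genes with tight groups. Lrp1, an endocytic receptor, stood at 171, 159 and 185 CPM in combination libraries, against 42.0, 35.9 and 42.6 CPM in control libraries, a log2 fold change of 2.09 (SE 0.19, adjusted p = 0.00361). Hmgb3, a chromatin protein of the high mobility group, stood at 43.4, 48.3 and 32.3 CPM in combination libraries, against 206, 159.9 and 146 CPM in control libraries, with a log2 fold change of −2.05 (SE 0.20, adjusted p = 0.00366). In both genes the groups lay far apart. The genes Lonrf3 (1.74 on the log2 scale), Plxnd1, a semaphorin receptor (2.02), and Rbms2, an RNA-binding protein (2.00), also rose. Among the 10 smallest p-values, falls were seen in Nudt5, an ADP-sugar hydrolase (−1.27), Sod1, the cytosolic superoxide dismutase (−1.44), Dnajc8, a J-domain protein (−1.33), Ubl4a, a ubiquitin-like factor of membrane protein insertion (−1.43), and Swi5, a recombination factor (−1.50). Sod1 stood at 70.6, 66.4 and 69.1 CPM in combination libraries, against 196, 192 and 171 CPM in control libraries, and Nudt5 at 58.7, 54.2 and 51.7 CPM against 128, 145 and 123 CPM. Each of these 10 genes passed in all 12 fits that left out a library. They were picked by p-value in these same data, so this is no independent support. Here and below, the fits that left out a single-agent library kept every combination and control library.

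**Figure D1:**
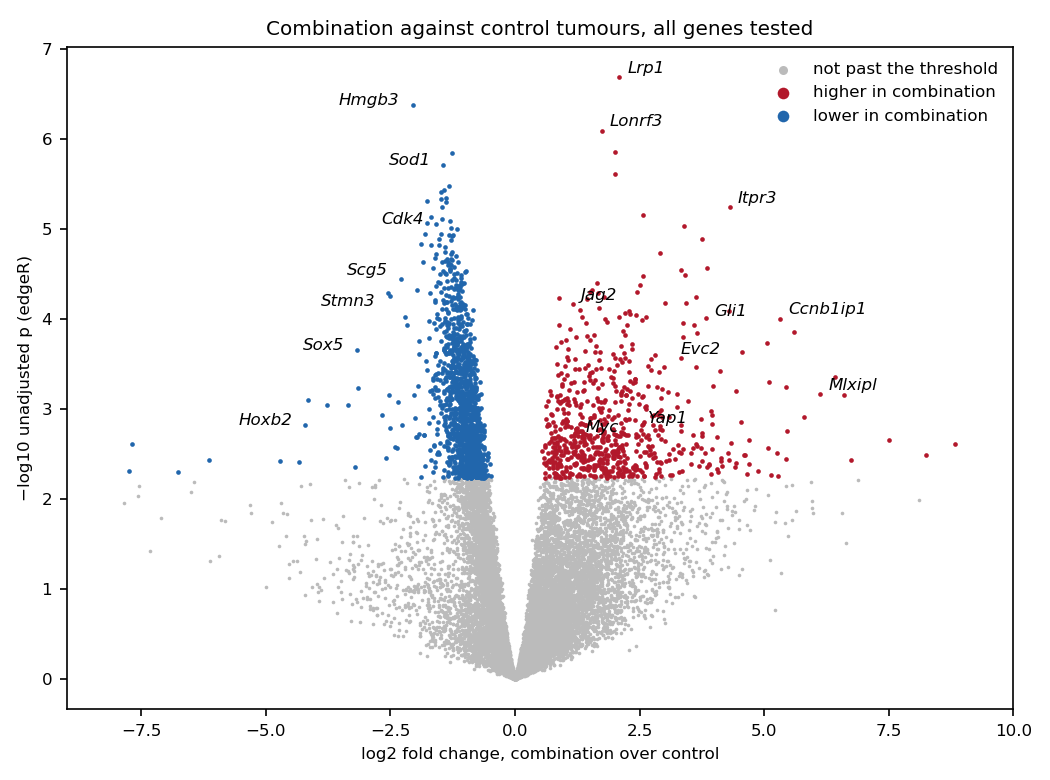
Log2 fold change of combination over control (x axis) against −log10 of the unadjusted edgeR p (y axis) for the 17426 genes tested; coloured points passed the adjusted threshold, 677 higher and 1356 lower. Points on the lower side form a dense cloud at modest fold changes, while those on the higher side spread to larger ones.

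The call rested on a spread shared by all 4 groups and on few libraries. Fitted on the 6 libraries alone, edgeR's quasi-likelihood test called 0 genes at an adjusted p of 0.05 (4284 had an unadjusted p under 0.05, against 5266 in the fit on 12 libraries), while DESeq2 on 12 libraries called 3607. Without combination library 1 the count was 306, without combination library 3 it was 383 and without control library 1 it was 921. Upper quartile scaling raised the median log2 fold change of all genes from 0.05 to 0.28 and called 1100 higher and 611 lower, so the direction with more calls changed with the scaling. No named gene or list member that passed changed sign under any setting. Fold changes varied with transcript length, taken here as the merged length of all exons that GENCODE annotates for a gene. The median fold change was −0.10 for the shortest quartile of genes and 0.24 for the longest. By that measure, the median length was 4551 bases for genes called higher and 2165 bases for genes called lower. With the trend over length removed, 451 genes were called higher and 1301 lower, and 1531 of these calls were shared with the fit used here. Genes named below that then lost their call included Cacna1g, Col6a3, Bax and Ddit3. Whether length was the cause of any single gene's fold change was not tested.

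**Figure D2:**
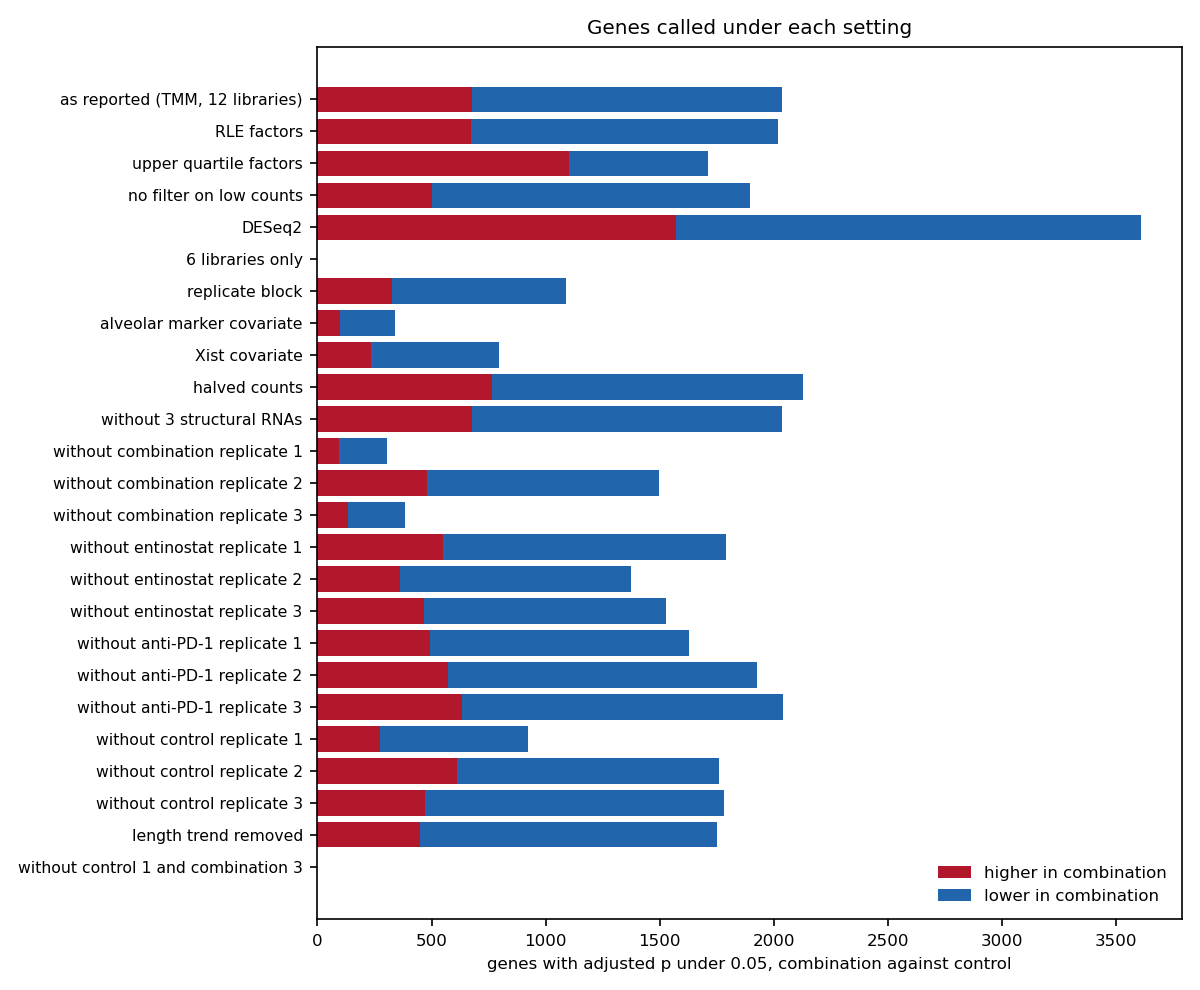
Number of genes called for combination against control (x axis) under each setting (rows), split into higher (red) and lower (blue). The bar as reported stands at 2033; the 2 settings with no bar are the fit on 6 libraries and the fit without control library 1 and combination library 3, each at 0.

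The induced alleles and the drug targets were examined first. Myc, the induced oncogene, stood at 209, 157 and 211 CPM in combination libraries, against 91.8, 50.6 and 99.7 CPM in control libraries, with no overlap and a log2 fold change of 1.25 (SE 0.32, adjusted p = 0.0299). Gene-level counts cannot tell the induced Myc transcripts from those of the normal gene. The call was lost without combination library 1 or 3 and without control library 1 or 2, where the adjusted p reached at most 0.0928. Rb1 stood at 39.7, 36.4 and 54.3 CPM in combination libraries and 30.1, 49.6 and 46.1 CPM in control libraries, and Trp53 at 14, 14.8 and 13.3 CPM and 15.8, 13.5 and 20.0 CPM. Neither passed, and counts over the whole gene do not check the deletion, since floxed exons are not counted apart and other cells carry the genes intact. Of 20 histone deacetylases and corepressors, 2 fell and none rose (median log2 fold change −0.08, against 0.05 over all genes). The share that fell, 10%, was near the 7.78% of all genes lower. Hdac2 stood at 105, 119.6 and 107 CPM in combination libraries, against 278, 142 and 191 CPM in control libraries, with a log2 fold change of −0.88 (SE 0.21, adjusted p = 0.0266), and Hdac3 at 66.8, 83.2 and 68.6 CPM against 109, 114 and 97.3 CPM, with −0.55 (SE 0.15, adjusted p = 0.0370). Hdac1, at 58.5, 70.0 and 76.6 CPM in combination libraries and 98.3, 94.3 and 86.7 CPM in control libraries, did not pass (adjusted p = 0.0982). Under upper quartile scaling no member of that list fell, 3 rose and the median was 0.15; it was 0.032 without control library 1 in the scaling used here, and none passed without combination library 1, combination library 3 or control library 1. Pdcd1, which encodes PD-1, lay at or below 0.50 CPM in combination libraries and 0.64 CPM in control libraries, and Cd274, which encodes its ligand PD-L1, stood at 6.92, 5.94 and 3.85 CPM and 1.29, 3.93 and 3.52 CPM; neither passed.

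Among genes often raised by HDAC inhibitors, 1 of 18 rose and 2 fell (median 0.64). These shares, 5.56% and 11.1%, were near the 3.88% of all genes higher and 7.78% lower. Here and below, a value in brackets after a gene is its log2 fold change of combination over control, and a list's median is that of its members' log2 fold changes. Mt1, a metallothionein, stood at 37.6, 30.2 and 25.6 CPM in combination libraries, against 6.56, 11.7 and 17.3 CPM in control libraries (1.39, SE 0.38, adjusted p = 0.0389). The genes that fell were the linker histone gene H1f0, at 142, 113 and 194 CPM in combination libraries against 503, 308 and 337 CPM in control libraries (−1.35, SE 0.34, adjusted p = 0.0299), and the histone gene Hist1h2bk (−1.0, SE 0.18, adjusted p = 0.0107). Cdkn1a, the cell cycle inhibitor p21, overlapped between the groups at 6.37, 8.35 and 21.2 CPM in combination libraries and 16.4, 5.53 and 2.58 CPM in control libraries. Histone and metallothionein genes have near-identical copies, and no source used here says how the counting split their reads.

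The 15 largest rises, taken from genes that averaged 1 or more in log2 CPM and whose groups stayed apart, included ion channels, metabolic enzymes and matrix proteins. Itpr3, a calcium release channel of the endoplasmic reticulum, stood at 67.7, 59.3 and 68.8 CPM in combination libraries, against 2.96, 5.79 and 1.11 CPM in control libraries, a log2 fold change of 4.31 (SE 0.55, adjusted p = 0.00626). Mlxipl, a transcription factor that responds to carbohydrate, stood at 26.8, 17.7 and 46.2 CPM in combination libraries, against 0.117, 0.745 and 0.430 CPM in control libraries (6.13, SE 1.34, adjusted p = 0.0186). Ccnb1ip1, a ubiquitin ligase that binds cyclin B, stood at 38.2, 4.95 and 18.9 CPM in combination libraries, against 0.548, 0.559 and 0.430 CPM in control libraries (5.32, SE 0.92, adjusted p = 0.00962). Each was low in every control library and higher in every combination library, with combination library 2 the lowest of its group. Alpk1, an innate immune kinase, reached 153 CPM in combination library 3 and 13.0 and 20.4 CPM in combination libraries 1 and 2, against 2.06, 3.85 and 2.00 CPM in control libraries. Cacna1g, a T-type calcium channel, likewise leaned on combination library 3 (12.0, 4.75 and 73.1 CPM, against 2.45, 0.0207 and 0.0506 CPM in control libraries) and passed in 2 of the 12 fits that left out a library. Rises of 3.42 to 4.42 on the log2 scale were also seen in Hmcn1, an extracellular matrix protein, Trpv4, a cation channel, Adamts14, a procollagen protease, Acsf2, an acyl-CoA synthetase, Mapk13, a p38 kinase, Runx3, a RUNX transcription factor, Spp1, which encodes osteopontin, and Plekha7, a protein of adherens junctions. Adamts14, Acsf2, Runx3 and Plekha7 passed in all 12 of those fits, while Spp1 passed in 2.

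Of 23 calcium channels and release proteins, 4 rose and none fell (17.4%, against 3.88% of all genes higher; median 0.41, and 0.092 with the trend over transcript length removed, where 3 rose). Besides Itpr3 and Trpv4 these were Atp2a3, a calcium pump that fills the endoplasmic reticulum, at 18.8, 12.1 and 33.6 CPM in combination libraries against 1.25, 5.01 and 5.72 CPM in control libraries (2.43, SE 0.61, adjusted p = 0.0299), and the release channel Itpr1 (1.03, SE 0.30, adjusted p = 0.0464). A single member of the 23 passed without combination library 1 or 3.

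**Figure D3:**
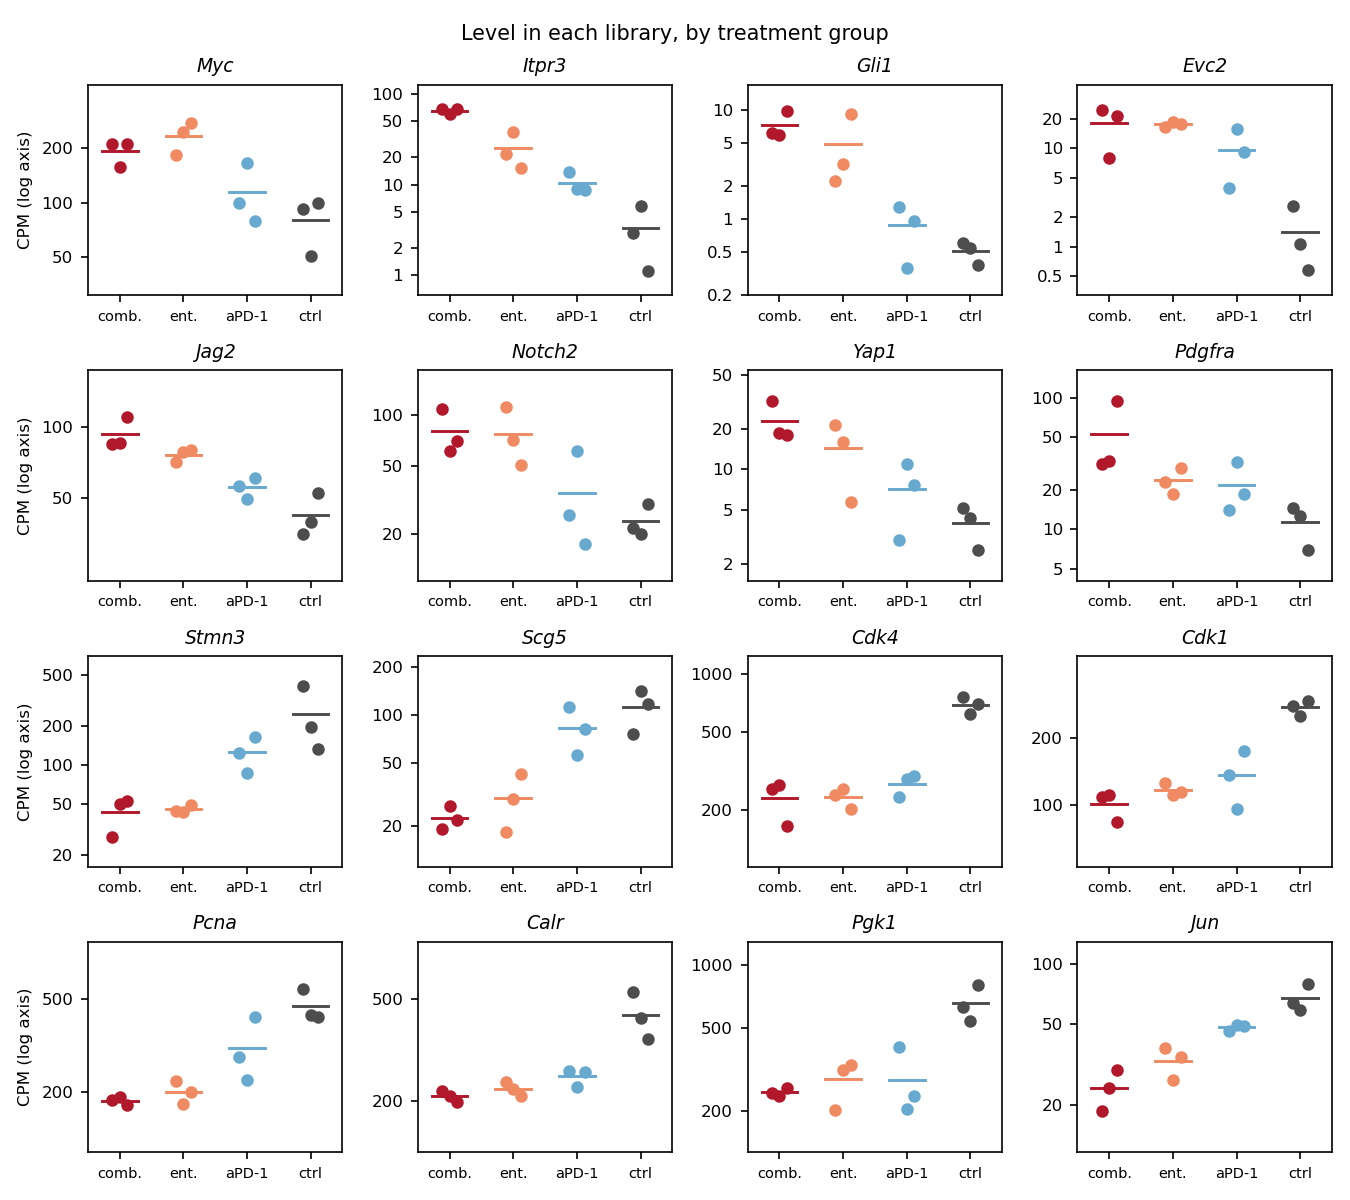
CPM on log axes for 16 genes in each library (points) with the group mean (line), in combination (comb.), entinostat (ent.), anti-PD-1 (aPD-1) and control (ctrl) tumours. Combination points lie above every control point for Myc, Itpr3, Gli1, Evc2, Jag2, Notch2, Yap1 and Pdgfra, and below every control point for the other 8.

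A few neuroendocrine and neuronal genes fell in combination tumours. Of 19 neuroendocrine genes 2 fell and none rose, and 16 had a negative log2 fold change (median −0.89, and −0.51 without control library 2). Scg5, a chaperone of prohormone processing in secretory granules, stood at 19.2, 26.9 and 21.8 CPM in combination libraries, against 75.8, 141 and 117 CPM in control libraries (−2.30, SE 0.36, adjusted p = 0.00823). Uchl1, a ubiquitin hydrolase abundant in neurons, stood at 109, 209 and 177 CPM in combination libraries, against 755, 511 and 273 CPM in control libraries (−1.64, SE 0.39, adjusted p = 0.0242). Of 19 neuronal differentiation genes 2 fell and none rose, and 18 had a negative log2 fold change (median −1.33). That median leaned on control library 1 and was −0.46 without it. The mean log2 CPM of the neuronal list was 3.23, 4.33 and 5.23 in combination libraries 1, 2 and 3, against 6.48, 4.33 and 4.43 in control libraries 1, 2 and 3, so the groups overlapped. Stmn3, a neuronal regulator of microtubules, stood at 27.8, 49.4 and 53.0 CPM in combination libraries, against 412, 199 and 132 CPM in control libraries (−2.51, SE 0.41, adjusted p = 0.00841), and Elavl4, a neuronal RNA-binding protein, fell as well (−1.33, SE 0.38, adjusted p = 0.0431). Scg5 and Stmn3 passed in all 12 fits that left out a library, Uchl1 in 9 and Elavl4 in 3. The share that fell, 10.5% of each list, was near the 7.78% of all genes lower.

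The 15 largest falls, by the same limits, included genes known from neurons. The adhesion gene Ncam2 stood at 1.31, 1.46 and 2.59 CPM in combination libraries, against 24.0, 4.55 and 19.0 CPM in control libraries (−3.14, SE 0.67, adjusted p = 0.0173), and the neuronal tubulin gene Tuba1a at 389, 837 and 683 CPM against 8115, 2162 and 1840.2 CPM (−2.67, SE 0.62, adjusted p = 0.0234). The transcription factor Sox5 was uniform in combination libraries, at 2.57, 2.29 and 2.49 CPM, against 9.96, 25.4 and 31.4 CPM in control libraries (−3.18, SE 0.61, adjusted p = 0.0123). Log2 fold changes of −4.21 to −2.28 were also called for the homeobox gene Hoxb2, Opcml, a neural adhesion gene, Lrrtm4, a synaptic adhesion gene, and Serpini1, which encodes neuroserpin. Others of this size were Gamt, an enzyme of creatine synthesis, Pcbd1, which acts in recycling of tetrahydrobiopterin, the potassium channel subunit Kcne3, Glipr2 and Btbd17. Gamt stood at 2.32, 1.51 and 2.46 CPM in combination libraries, against 18.2, 10.2 and 8.40 CPM in control libraries, and passed in all 12 fits that left out a library, whereas Kcne3 passed in 4.

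Neurod1, a transcription factor that defines a subtype of this cancer, varied widely within both groups. It stood at 9.92, 27.8 and 126 CPM in combination libraries 1, 2 and 3 and 490.2, 5.65 and 10.8 CPM in control libraries 1, 2 and 3. Control library 1 and combination library 3 were the highest of their groups, and the gene did not pass. Pou2f3, which marks tuft-like tumours, was too low to test, and none of 8 tuft-like genes tested passed. Their median log2 fold change was 1.52, with 6 positive and 2 negative. The mean log2 CPM of the tuft-like list ranged from 1.69 to 2.01 in combination libraries and from 0.77 to 0.90 in control libraries, without overlap. The mean log2 CPM of the neuroendocrine list ranged from 3.87 to 4.93 in combination libraries and from 4.85 to 5.58 in control libraries, so the groups overlapped.

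Some genes of signalling pathways linked to loss of the neuroendocrine state rose. Of 15 Notch pathway genes 4 rose (26.7%, against 3.88% of all genes higher) and none fell. The list's median was 1.16, and 0.66 without combination library 1, and 9 members lay above every control library (15.2% of all genes did). The ligand Jag2 stood at 84.6, 86.0 and 111 CPM in combination libraries, against 34.8, 39.4 and 52.1 CPM in control libraries (1.16, SE 0.19, adjusted p = 0.00878). The receptor Notch2 stood at 109, 61.8 and 70.1 CPM in combination libraries, against 21.7, 19.9 and 29.9 CPM in control libraries (1.75, SE 0.45, adjusted p = 0.0308), and the receptor Notch3 at 33.4, 16.3 and 39.0 CPM against 11.2, 6.81 and 8.60 CPM (1.74, SE 0.42, adjusted p = 0.0264). Rest, a repressor of neuronal genes outside the nervous system, rose too (2.10, SE 0.60, adjusted p = 0.0455). Jag2 passed in all 12 fits that left out a library, Notch3 in 8, Notch2 in 7 and Rest in 3. Of 14 YAP1 and TEAD genes 3 rose (21.4%) and none fell (median 1.06). Yap1, the coactivator of the Hippo pathway, stood at 31.8, 18.7 and 17.8 CPM in combination libraries, against 5.21, 4.39 and 2.56 CPM in control libraries (2.49, SE 0.56, adjusted p = 0.0206). Its DNA-binding partner Tead1 (1.00, SE 0.24, adjusted p = 0.0272) and the inhibitory kinase Lats2 (1.62, SE 0.43, adjusted p = 0.0342) rose as well. When combination library 1 was left out, 1 Notch pathway gene and no YAP1 or TEAD gene passed; without combination library 3 it was 1 of each list, and without control library 1 it was 2 and 1.

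Hedgehog and primary cilium genes included some of the largest rises. Of 18 tested, 3 rose (16.7%, against 3.88% of all genes higher) and none fell. The list's median was 1.2, and 0.80 without combination library 3. Gli1, a transcription factor that Hedgehog signalling induces, stood at 6.17, 5.94 and 9.78 CPM in combination libraries, against 0.607, 0.538 and 0.380 CPM in control libraries (3.83, SE 0.66, adjusted p = 0.00962). Evc and Evc2, partner proteins at the base of the cilium that transmit the Hedgehog signal, rose by 3.64 and 3.65 on the log2 scale. Evc2 stood at 24.6, 7.97 and 21.3 CPM in combination libraries, against 2.60, 1.08 and 0.582 CPM in control libraries, with combination library 2 the lowest of its group, and passed in all 12 fits that left out a library, as did Gli1. Of 21 secreted Wnt and BMP factors 4 rose (19%) and none fell (median 0.76, with 1.34 without control library 3). Bmp8b, a BMP ligand, stood at 5.83, 5.94 and 13.6 CPM in combination libraries, against 0.313, 0.952 and 1.27 CPM in control libraries (3.33, SE 0.65, adjusted p = 0.0131). Sfrp2, a secreted Wnt modulator, stood at 17.5, 11.7 and 7.99 CPM in combination libraries, against 2.31, 0.952 and 0.658 CPM in control libraries (3.24, SE 0.74, adjusted p = 0.0213). The ligands Bmp7 (2.46) and Wnt5a (2.07) also rose. Without combination library 3 none of these 4 passed, and without combination library 1 a single member of the list did.

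Mesenchymal and matrix genes lay higher in combination tumours. Of 13 mesenchymal transition genes 4 rose (30.8%, against 3.88% of all genes higher) and none fell. The list's median was 1.49, and 0.93 without control library 1. The transcription factor Twist1 stood at 2.63, 0.604 and 7.62 CPM in combination libraries, against 0.391, 0.166 and 0.202 CPM in control libraries (3.81, SE 1.03, adjusted p = 0.0369), and Snai1 at 2.14, 0.880 and 5.86 CPM against 0.157, 0.290 and 0.455 CPM (3.29, SE 0.88, adjusted p = 0.0365). Both were low genes with their highest value in combination library 3. The integrin Itga5 (1.79, SE 0.43, adjusted p = 0.0264) and the cytokine Tgfb1 (1.87, SE 0.47, adjusted p = 0.0301) also rose. None of the 13 passed without combination library 1, combination library 3 or control library 1. Of 18 fibroblast and matrix genes 5 rose and none fell (27.8%, median 1.44). The collagen VI chain Col6a1 stood at 44.1, 41.5 and 33.9 CPM in combination libraries, against 8.20, 15.5 and 15.4 CPM in control libraries (1.61, SE 0.31, adjusted p = 0.0124). Pdgfra, a growth factor receptor of fibroblasts, stood at 31.5, 33.0 and 95.0 CPM in combination libraries, against 14.4, 12.5 and 6.88 CPM in control libraries (2.24, SE 0.48, adjusted p = 0.0177). The collagens Col5a1 (1.87) and Col6a3 (2.00) and, named for completeness after its value was seen, the pericyte receptor Pdgfrb (1.68) were the others. Without combination library 1 or 3, 1 of the 18 passed, and without control library 1 or 2 it was 2. The summed level of the list ranged from 1015 to 2255 CPM in combination libraries and from 642 to 850 CPM in control libraries, with no marker at 0 in every library of either group, and the part of fibroblast content in the other rises was not tested. None of 14 epithelial genes passed (median 1.23, with 0.76 to 2.86 when a library was left out).

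**Figure D4:**
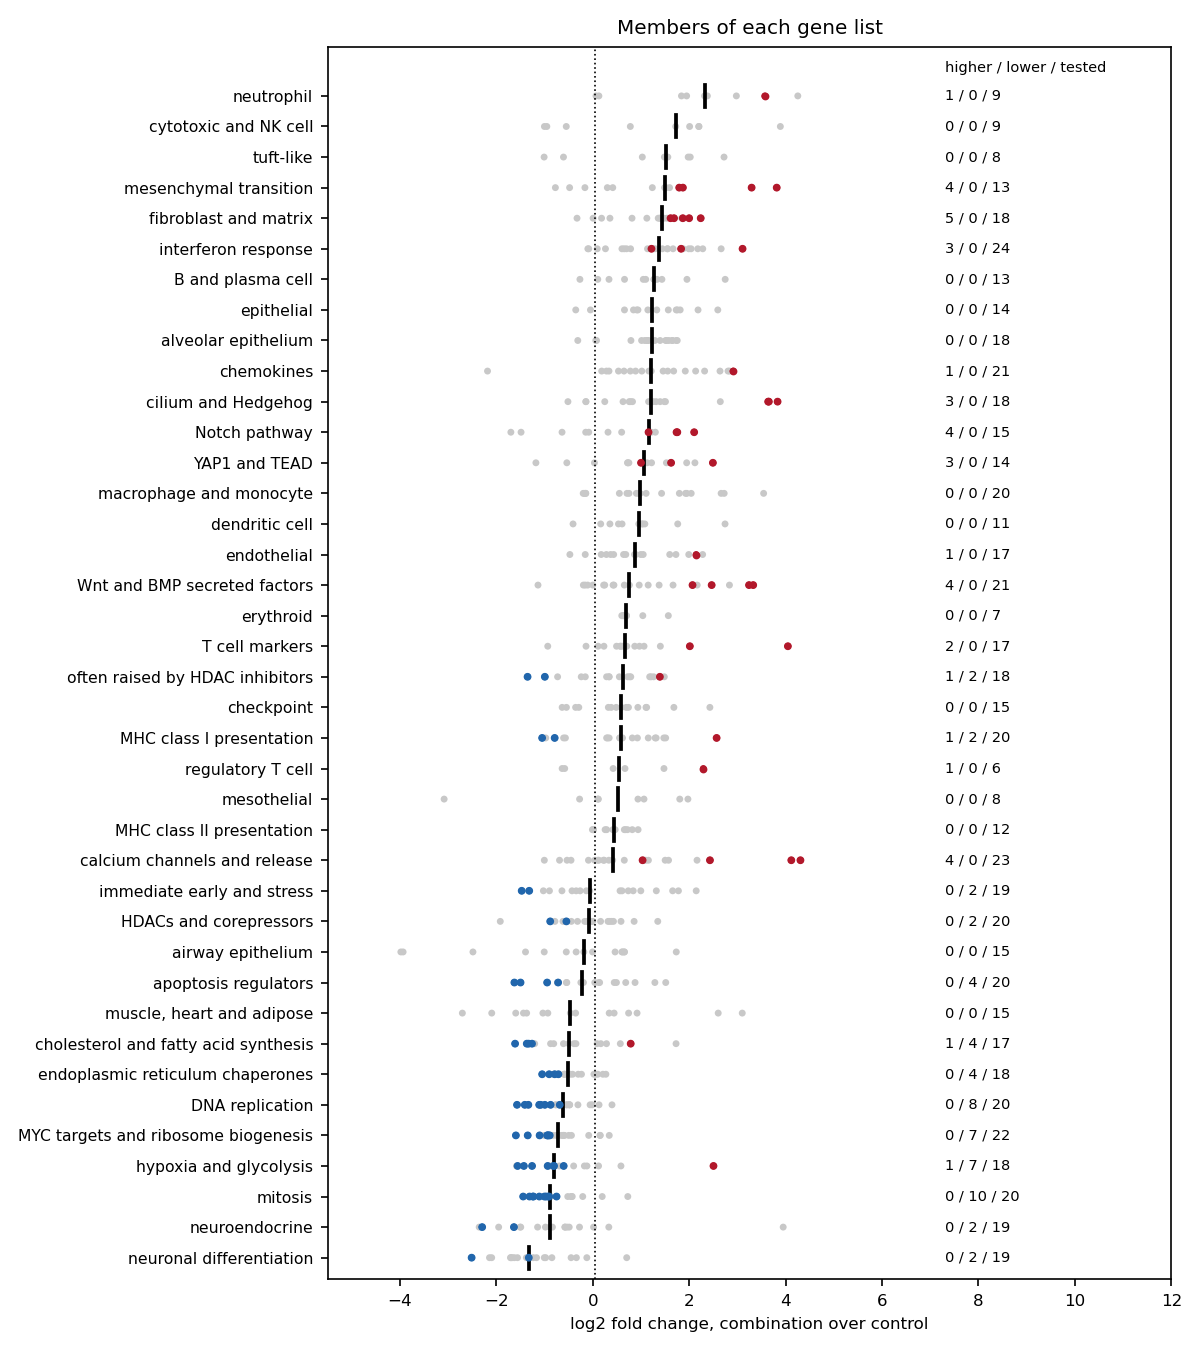
Log2 fold change of combination over control (x axis) for each tested member of 39 gene lists (rows, ordered by median), with members that passed in red (higher) or blue (lower), the list median as a black bar and the median of all genes, 0.05, as a dotted line. Fibroblast, mesenchymal, Notch and cilium lists lie to the right, and mitosis, DNA replication, glycolysis, MYC target and neural lists to the left.

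Many cell division genes fell. Of 20 mitosis genes 10 fell and none rose (7.78% of all genes were lower; median −0.88). Cdk1 stood at 108, 110.5 and 83.7 CPM in combination libraries, against 279.6, 249.8 and 293 CPM in control libraries (−1.45, SE 0.22, adjusted p = 0.00790), and Cdc20 at 76.3, 74.8 and 66.3 CPM against 185, 141 and 185 CPM (−1.23, SE 0.20, adjusted p = 0.00823). Ube2c, the ubiquitin-conjugating enzyme of the anaphase-promoting complex, stood at 45.0, 32.9 and 37.7 CPM in combination libraries, against 118, 80.1 and 89.2 CPM in control libraries (−1.31, SE 0.20, adjusted p = 0.00790), and Birc5, which encodes survivin, fell by 0.90 on the log2 scale. The groups did not overlap in any of these 4 genes. Mki67, which encodes the proliferation marker Ki-67 and was singled out after its values were seen, had a positive log2 fold change and did not pass, at 1054, 644 and 735 CPM in combination libraries and 451, 368 and 653 CPM in control libraries (0.73, SE 0.34, adjusted p = 0.170). Of 20 DNA replication genes 8 fell and none rose (40.0%, median −0.62, and −0.40 without control library 1). Pcna, the sliding clamp of DNA polymerase, stood at 186, 191 and 176 CPM in combination libraries, against 553, 427 and 419 CPM in control libraries (−1.34, SE 0.23, adjusted p = 0.00932). The clamp loader subunit Rfc4 (−1.08) and Gins1 (−1.57) and Gins2 (−1.41), of the replicative helicase, fell too, and these 4 passed in all 12 fits that left out a library. With a library left out, the mitosis count was lowest without combination library 3, at 3, and was 4 without combination library 1, against 4 in both fits for DNA replication.

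The motifs shown above were counted in the promoters of these lists. TTTGAA occurred in 12 of the 17 mitosis promoters in the RefSeq table (70.6%), among them those of Cdk1 and Cdc20, against 12.5% of the 15870 promoters of genes tested and 17.9% of all 32851 promoters. It occurred in 3 of 18 DNA replication promoters (16.7%). CCAAT occurred in 14 of the 17 mitosis promoters (82.4%), against 36.9% of promoters of genes tested. The match is one of letters and does not show that a factor binds there. Such motifs are already known from promoters of cell division genes, so these shares are no new evidence. The shares cover whole lists, not the members that fell.

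Of 22 MYC target and ribosome biogenesis genes 7 fell (31.8%, against 7.78% of all genes lower) and none rose. The list's median was −0.73, and −0.46 without control library 1. Cdk4 stood at 256, 267 and 164 CPM in combination libraries, against 763, 622 and 696 CPM in control libraries (−1.60, SE 0.21, adjusted p = 0.00696). Nme1, a nucleoside diphosphate kinase, stood at 116, 179 and 91.4 CPM in combination libraries, against 449.9, 283 and 253 CPM in control libraries (−1.35, SE 0.29, adjusted p = 0.0179). Fbl, the methyltransferase of nucleolar RNA (−0.95), and Mrto4, a ribosome assembly factor (−1.10), fell as well, and groups did not overlap in any of the 4. Cdk4 passed in all 12 fits that left out a library, and without combination library 1 or 3 it was the single member to pass, while 2 passed without control library 1. Upper quartile scaling called 5 lower and 1 higher. CACGTG occurred in 6 of the 22 promoters annotated for 17 genes of this list (27.3%), including that of Cdk4, against 9.21% of promoters of genes tested. The list was assembled from MYC targets, so that share is no new evidence, and it covers the whole list, not the members that fell. Nme1 and the glycolytic genes below have close paralogs or processed copies, so their counts are less certain.

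Several glycolysis genes fell in the same tumours. Of 18 hypoxia and glycolysis genes 7 fell (38.9%, against 7.78% of all genes lower). A rise was called for 1 (5.56%, near the 3.88% of all genes higher), and the list's median was −0.81. Pgk1, phosphoglycerate kinase, stood at 242, 234 and 257 CPM in combination libraries, against 631, 539 and 805 CPM in control libraries (−1.43, SE 0.28, adjusted p = 0.0136). Tpi1, triosephosphate isomerase, stood at 172, 152 and 149.7 CPM in combination libraries, against 381, 422 and 332 CPM in control libraries (−1.26, SE 0.27, adjusted p = 0.0174), and Ldha, lactate dehydrogenase, at 504, 481 and 519 CPM against 1025, 915 and 939 CPM (−0.94, SE 0.21, adjusted p = 0.0197). Aldoa, aldolase, fell by 1.56 on the log2 scale. The gene that rose, named after its value was seen, was Car9, a carbonic anhydrase induced by hypoxia, from a low level (2.94, 0.679 and 2.76 CPM in combination libraries, against 0.470, 0.269 and 0.380 CPM in control libraries). None of the 18 passed without combination library 1 or without combination library 3, and 3 fell without combination library 2 or control library 3.

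In cholesterol and fatty acid synthesis, 4 of 17 genes fell (23.5%, against 7.78% of all genes lower). A rise was called for 1 (5.88%, near the 3.88% of all genes higher). The list's median was −0.50, and −0.03 without control library 1. Insig1, a sterol-responsive regulator, stood at 35.2, 35.4 and 33.0 CPM in combination libraries, against 117, 77.2 and 67 CPM in control libraries (−1.33, SE 0.24, adjusted p = 0.0111). Idi1 stood at 19.5, 30.3 and 17.4 CPM in combination libraries, against 67.5, 62.3 and 43.9 CPM in control libraries (−1.37, SE 0.25, adjusted p = 0.0111), and the pathway enzymes Fdps (−1.61) and Cyp51 (−1.26) fell too. Srebf1, a transcription factor of lipid synthesis named after its value was seen, rose (0.79, SE 0.20, adjusted p = 0.0308). A single gene of the list passed without combination library 1, and without combination library 3 it was 2.

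Among endoplasmic reticulum chaperones 4 of 18 fell (22.2%, against 7.78% of all genes lower) and none rose. The list's median was −0.53, and −0.28 with upper quartile scaling. Calr, calreticulin, stood at 219, 209.8 and 198 CPM in combination libraries, against 531, 419.9 and 348 CPM in control libraries (−1.05, SE 0.18, adjusted p = 0.00901), and passed in all 12 fits that left out a library. Hspa5, the chaperone BiP, stood at 246, 263 and 269.8 CPM in combination libraries, against 631, 424 and 406 CPM in control libraries (−0.91, SE 0.21, adjusted p = 0.0208). The disulfide isomerases Pdia3 (−0.79) and P4hb (−0.71) fell as well. Without combination library 1 or 3 Calr was the single member to pass, and 2 passed without control library 1. Ddit3, which encodes the stress factor CHOP, stood at 7.32, 7.44 and 7.36 CPM in combination libraries, against 24.2, 10.4 and 20.7 CPM in control libraries (−1.32, SE 0.37, adjusted p = 0.0425). The endoplasmic reticulum stress element occurred in 7 of 16 promoters of the list (43.8%), Hspa5 and Calr included, against 0.139% of promoters of genes tested; the list holds known targets of that element, so its share there is no new evidence.

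Of 20 apoptosis regulators 4 fell and none rose (20.0%, median −0.22). Bok, a proapoptotic BCL-2 relative, stood at 30.5, 36.9 and 34.9 CPM in combination libraries, against 131, 90.5 and 68.0 CPM in control libraries (−1.50, SE 0.27, adjusted p = 0.00988). The proapoptotic Bid (−0.95) and Bax (−0.72) fell too, and under upper quartile scaling 1 of the 20 fell and the median was 0.0063. The median was also near 0 without control library 1 (−0.048) and without control library 3 (0.032). None passed without combination library 1, and 1 passed without combination library 3 or control library 1. Of 19 immediate early and stress genes 2 fell and none rose (10.5%, near the 7.78% of all genes lower). Jun, a transcription factor of AP-1, stood at 18.7, 24.3 and 29.8 CPM in combination libraries, against 64.0, 58.7 and 79.8 CPM in control libraries (−1.48, SE 0.22, adjusted p = 0.00790), and passed in all 12 fits that left out a library; the other was Ddit3.

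Immune genes lay higher in the median, and few passed. Of 24 interferon response genes 3 rose and none fell (12.5%, against 3.88% of all genes higher; median 1.37, and 0.70 without combination library 2), and 22 had a positive log2 fold change. Irf1, an interferon-induced transcription factor, stood at 11.5, 15.6 and 13.5 CPM in combination libraries, against 5.23, 6.13 and 6.12 CPM in control libraries (1.22, SE 0.34, adjusted p = 0.0424). Irf7, a regulator of type I interferon, stood at 5.46, 13.4 and 3.37 CPM in combination libraries, against 1.10, 2.63 and 2.53 CPM in control libraries (1.83, SE 0.54, adjusted p = 0.0490), and Oas2, an antiviral enzyme, at 1.23, 6.44 and 0.955 CPM against 0.0783, 0.538 and 0.380 CPM (3.11, SE 0.91, adjusted p = 0.0490). Combination library 2 was the highest for all 3 genes, and of the list 1 gene passed in 3 of the 12 fits that left out a library and none in the other 9. Macrophage markers had their highest level in that library too. Their mean log2 CPM ranged from 2.09 to 4.52 in combination libraries and from 1.34 to 3.29 in control libraries, their sum from 406 to 1666 CPM and from 501 to 1011 CPM, and none of 20 passed (median 0.97, with 0.61 without control library 1 and 1.54 without control library 2). The part of macrophage content in the interferon genes was not tested.

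In MHC class I presentation 1 of 20 genes rose and 2 fell (median 0.58, with 0.23 to 0.96 when a library was left out). These shares, 5% and 10%, were near the 3.88% of all genes higher and 7.78% lower. Nlrc5, the transactivator of class I genes, stood at 3.49, 8.65 and 3.59 CPM in combination libraries, against 0.470, 1.24 and 0.936 CPM in control libraries (2.57, SE 0.56, adjusted p = 0.0188), and did not pass without combination library 2 or without control library 1. The 2 that fell were the chaperones Calr and Pdia3, which also fold other proteins, and no class I heavy chain passed. Of 12 MHC class II genes none passed (median 0.44, with −0.15 without combination library 2 and 1.36 without control library 2). Cd74, the invariant chain, stood at 44.9, 58.8 and 5.50 CPM in combination libraries and 1.90, 50.7 and 15.6 CPM in control libraries.

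T cell and NK cell genes were low in all libraries. T cell markers had a median of 0.66 (0.084 without combination library 2, 0.26 without control library 1). Of 17 tested, 2 rose (11.8%, against 3.88% of all genes higher) and none fell. Both encode transcription factors of naive and memory-like T cells that also act in other cells, Tcf7 at 3.06, 7.09 and 12.2 CPM in combination libraries against 1.19, 2.15 and 2.20 CPM in control libraries (2.01, SE 0.54, adjusted p = 0.0362) and Lef1 at 1.83, 3.90 and 4.85 CPM against 0.313, 0.0414 and 0.278 CPM (4.05, SE 1.16, adjusted p = 0.0453). Both had their highest value in combination library 3, whose mean log2 CPM over the T cell list was the lowest of its group. The list's mean ranged from −0.97 to 0.27 in combination libraries and from −1.92 to −0.48 in control libraries. Cd8a stood at 0.657, 0.553 and 0.452 CPM in combination libraries and 0.137, 0.186 and 0.304 CPM in control libraries, Cd4 at 2.23, 1.11 and 2.56 CPM and 4.74, 2.96 and 3.59 CPM, and the pan-leukocyte gene Ptprc at 30.0, 49.3 and 9.10 CPM and 4.76, 27.3 and 13.6 CPM; none passed. No member passed among 9 cytotoxic and NK cell genes, whose summed level ranged from 2.43 to 6.19 CPM in combination libraries and from 0.76 to 3.46 CPM in control libraries, nor among 15 checkpoint genes. In the regulatory T cell list 1 of 6 rose (16.7%), Ikzf2, which encodes Helios (2.29, SE 0.54, adjusted p = 0.0246). Foxp3, the defining factor of these cells, did not pass, at 12.4, 11.6 and 13.4 CPM in combination libraries and 24.7, 13.4 and 18 CPM in control libraries. Mmp8, a neutrophil collagenase (3.57, SE 0.90, adjusted p = 0.0299), was 1 of 9 neutrophil genes to rise (11.1%, against 3.88% of all genes higher). All 9 had a positive log2 fold change (median 2.32). The mean log2 CPM of the neutrophil list overlapped, at −0.53 to 1.98 in combination libraries and −3.17 to 0.78 in control libraries. Ccl9, a myeloid chemokine (2.91, SE 0.81, adjusted p = 0.0410), was 1 of 21 chemokines to rise (4.76%, near the 3.88% of all genes higher). No dendritic cell gene (11 tested) and no B or plasma cell gene (13 tested) passed. Without control library 1, no member of the interferon, T cell, regulatory T cell, neutrophil or chemokine lists passed.

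Markers of normal lung and vessels were set beside these results. Alveolar markers had a mean log2 CPM of 2.27 to 4.98 in combination libraries and −0.42 to 4.24 in control libraries. Their sum ranged from 155 to 755 CPM in combination libraries and from 120 to 553 CPM in control libraries, 17 of 18 had a positive log2 fold change and none passed (median 1.22). Without combination library 1 that median was 0.59 and without control library 1 it was 0.77. Without control library 2 it was 3.74, and 2 alveolar, 2 airway and 1 mesothelial marker then passed. With their mean as a covariate 341 genes passed, and each of the 2033 genes kept its sign at a median of 0.956 of its log2 fold change. Of 17 endothelial markers 1 rose (5.88%, near the 3.88% of all genes higher), Erg, an endothelial transcription factor (2.14, SE 0.56, adjusted p = 0.0335). The mean of these markers ranged from 2.12 to 3.22 in combination libraries and from 1.71 to 2.27 in control libraries. No airway (15), erythroid (7), muscle, heart and adipose (15) or mesothelial (8) marker tested passed. Control library 1 had the lowest mean of the alveolar, endothelial and macrophage lists among the 6 libraries, and combination library 3 the lowest of its group.

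**Figure D5:**
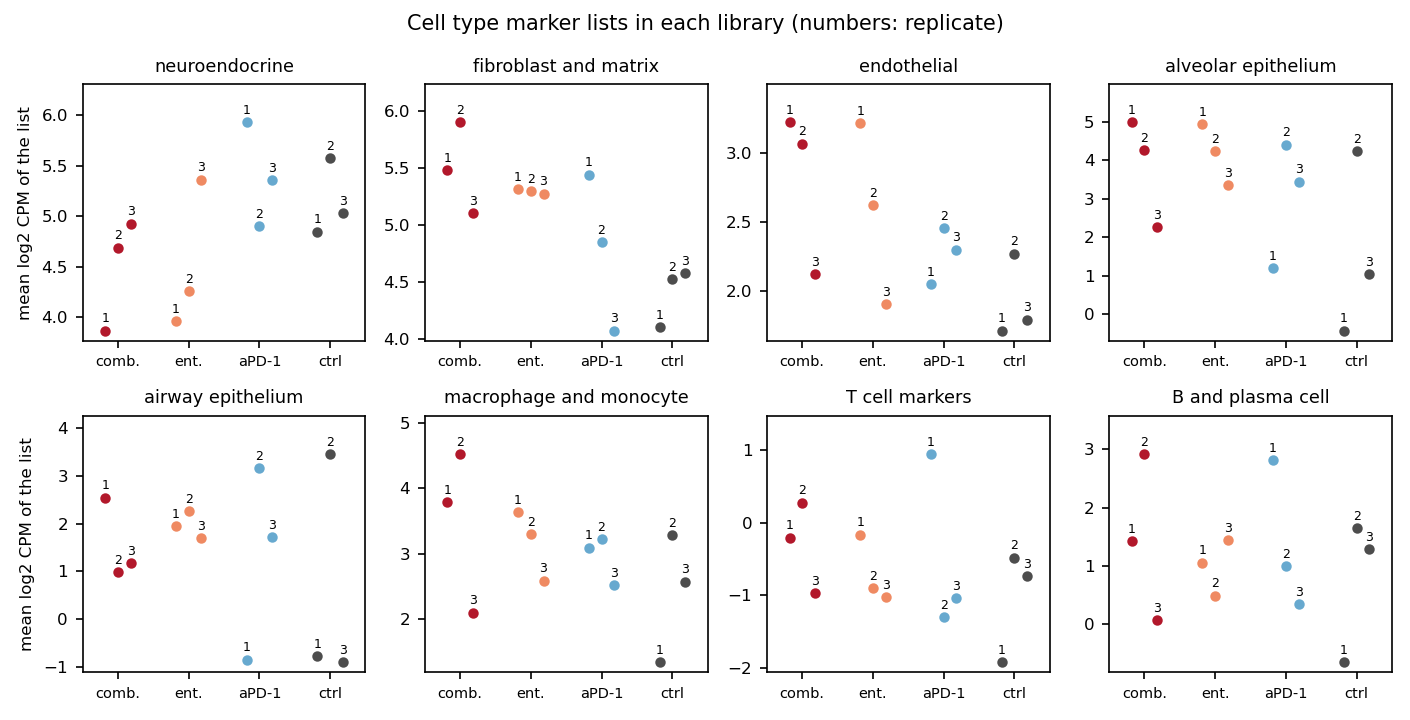
Mean log2 CPM of 8 marker lists (panels) in each library of combination (comb.), entinostat (ent.), anti-PD-1 (aPD-1) and control (ctrl) tumours; numbers give the replicate. Fibroblast means lie above every control library in all 3 combination libraries, while the other lists overlap, with control library 1 lowest for alveolar, endothelial and macrophage markers.

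The combination was then compared with each agent alone, to ask what the second agent added. Against entinostat alone no gene passed edgeR's test (270 had an unadjusted p under 0.05), and DESeq2 called 1. The 3 smallest p-values among genes eligible for naming were those of Sox5, Spaca1 and Ret. Sox5 stood at 2.57, 2.29 and 2.49 CPM in combination libraries, against 21.3, 3.22 and 12.0 CPM with entinostat alone (−2.31, SE 0.59, adjusted p = 1.00). Ret, a receptor tyrosine kinase, stood at 3.57, 3.62 and 2.51 CPM in combination libraries, against 0.791, 1.14 and 1.04 CPM with entinostat alone (1.71, SE 0.48, adjusted p = 1.00). In both the groups did not overlap, and neither gene passed. Spaca1 stood at 0.229, 0.252 and 1.76 CPM in combination libraries and had no counts with entinostat alone. Of genes that rose over control, Itpr3 and Lrp1 were looked at here after their values were seen, and neither passed against entinostat. Itpr3 stood at 67.7, 59.3 and 68.8 CPM in combination libraries and 21.7, 38.2 and 15.3 CPM with entinostat (1.38, SE 0.49, adjusted p = 1.00), and Lrp1 at 171, 159 and 185 CPM and 128, 108 and 105 CPM (0.59, SE 0.19, adjusted p = 1.00).

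Against the antibody alone no gene passed edgeR's test either (2168 had an unadjusted p under 0.05; the smallest adjusted p was 0.201), whereas DESeq2 called 422, 184 higher and 238 lower. Col11a1, a fibrillar collagen chain, stood at 48.4, 27.5 and 49.8 CPM in combination libraries, against 10.2, 5.08 and 4.35 CPM with anti-PD-1 alone (2.68, SE 0.40, adjusted p = 0.201). Hist4h4, a histone gene, stood at 242, 232 and 176 CPM in combination libraries, against 541, 624 and 449.9 CPM with anti-PD-1 alone (−1.31, SE 0.18, adjusted p = 0.201), and Lsm7, a factor of RNA splicing and decay, at 102, 89.6 and 68.1 CPM against 179.7, 193 and 212 CPM (−1.17, SE 0.19, adjusted p = 0.201). Groups did not overlap in these 3 genes. Chosen after their values were seen, Gli1 stood at 6.17, 5.94 and 9.78 CPM in combination libraries, against 1.30, 0.353 and 0.967 CPM with anti-PD-1 alone (3.05, SE 0.64, adjusted p = 0.201), and Scg5 at 19.2, 26.9 and 21.8 CPM against 112, 55.7 and 82.0 CPM (−1.88, SE 0.35, adjusted p = 0.201). The single-agent comparisons share their combination libraries with the comparison against control, so they are not independent of it.

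By list, the median log2 fold change of the combination over entinostat alone was 1.00 for interferon response genes and 1.21 for chemokines. Over anti-PD-1 alone it was 0.78 and 0.72, with no member passing in either. In mean log2 CPM, combination libraries 1 and 2 lay above every single-agent library for both lists. Combination library 3 lay below every anti-PD-1 library for both, at 1.01 for interferon genes and 0.18 for chemokines. With entinostat alone the means ranged from 0.71 to 1.52 for interferon genes and from 0.32 to 0.98 for chemokines. Over entinostat alone the median log2 fold change was −0.28 for neuroendocrine, −0.02 for Notch, 0.17 for fibroblast and −0.22 for mitosis genes. Over anti-PD-1 alone it was −0.68, 0.21, 0.77 and −0.32 for the same 4 lists. The median of all genes was 0.04 over entinostat and 0.05 over anti-PD-1.

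The interaction asked whether the combination departed from the sum of the single effects on the log2 scale. No gene passed edgeR's test (1052 had an unadjusted p under 0.05). DESeq2 called 52, of which 16 had a positive and 36 a negative interaction. The smallest p-values among those 52 belonged to small RNA genes, which the naming rule skips, such as Scarna6 (−2.45) and Snord104 (−2.07). In edgeR's test, the 3 smallest p-values among genes eligible for naming were those of Lars2, the mitochondrial leucyl-tRNA synthetase, Cbr1, a carbonyl reductase, and Ppp4c, a phosphatase subunit. Ppp4c stood at 41.4, 38.9 and 40.6 CPM in combination libraries, 39.6, 39.1 and 36.7 CPM with entinostat, 36.2, 37.4 and 41.4 CPM with anti-PD-1 and 88.1, 78.6 and 72.5 CPM in control libraries, an interaction of 1.12 (SE 0.21, adjusted p = 0.303). Lars2 stood at 115, 96.9 and 128 CPM in combination libraries, 130.3, 123 and 103 CPM with entinostat, 115, 90.4 and 76.7 CPM with anti-PD-1 and 458, 300.1 and 333 CPM in control libraries (1.88, SE 0.31, adjusted p = 0.303). Cbr1 stood at 16.5, 23.7 and 21.1 CPM in combination libraries, 15.1, 14.4 and 16.5 CPM with entinostat, 24.7, 26.1 and 30.3 CPM with anti-PD-1 and 59.4, 57.9 and 52.4 CPM in control libraries (1.48, SE 0.26, adjusted p = 0.303). In each the 3 treated groups lay below every control library and the combination stood no lower than the lower single agent, and the positive interaction restates that. In Cdk4, chosen after its values were seen, the treated groups lay below every control library, at 256, 267 and 164 CPM in combination libraries, 238, 257 and 201 CPM with entinostat, 232, 287 and 296 CPM with anti-PD-1 and 763, 622 and 696 CPM in control libraries (1.33, SE 0.30, adjusted p = 0.541).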

How the data were processed

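Bulk poly(A) RNA-seq was available for 12 tumour libraries, 3 per treatment, all with the same batch label. The deposited values are raw gene-level counts, the largest rounded by the authors. The submitters' processing notes name the build mm9 and, without roles, STAR 2.5.4a, Trimmomatic 0.36, Trim Galore, R 3.5.1 and DESeq2 1.22.2, and the deposited table's name points to TPMCalculator as the counter; no source used here gives the annotation or strand setting. Among low counts above 0, even ones made up 65.3% to 77.2% per library, so both mates of a pair may have been counted. A test on halved counts was run as an alternative.

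Of 22738 gene rows, 17426 passed filterByExpr. Counts of the 12 libraries were fitted together with edgeR 4.0.16 (limma 3.58.1, R 4.3.3) with TMM scaling, 1 mean per group, its robust quasi-likelihood test, and p-values adjusted over all genes tested (Benjamini-Hochberg). A gene passed at an adjusted p of 0.05; fold changes are log2 of combination over the other group, and the SE is the absolute fold change over the square root of F. CPM uses TMM-scaled totals, and list means use log2 CPM with a prior count of 2. The script was tested on simulated data.

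Members and gene lists were chosen with earlier results of these data known. Genes were named by rule: the 15 largest rises and falls without group overlap, the 10 smallest p-values, the 4 smallest p-values past the threshold in each list (otherwise the 2 most abundant), the 3 smallest p-values where none passed, and fixed regulators; predicted, small RNA, receptor segment and further-locus rows (455 of the latter) were skipped. The text says where a gene was chosen after its values were seen. A few genes that the rule names are not reported here. Promoters came from RefSeq (GRCm38.p6), and no coordinates of the data were used. Alternatives were DESeq2 1.42.0, other scalings, no filter, 6 libraries, covariates, a replicate block and each library left out.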

Additional observations from a re-analysis of the deposited data

Results flagged for a closer look

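Klf4, a transcription factor of epithelial differentiation, was chosen after its values were seen. It stood at 3.63, 4.30 and 2.79 CPM in combination libraries, 6.13, 3.54 and 7.06 CPM with entinostat alone, 5.08, 5.19 and 5.05 CPM with the antibody alone and 0.509, 3.46 and 0.658 CPM in control libraries. Every entinostat library lay above every control library, while every combination library lay below every anti-PD-1 library, so adding entinostat went in opposite directions without and with the antibody. The difference between those effects was −2.37 on the log2 scale (unadjusted p = 0.0223, adjusted p = 0.773, edgeR quasi-likelihood test), which did not pass over all genes.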

How the results depend on the processing

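The count of 2033 genes for combination against control was 2019 with DESeq2's size factors in edgeR, 1711 with upper quartile factors and 1893 with no filter on low counts. It was 3607 with DESeq2, of which 2029 were among the 2033, 1087 with the replicate block (325 higher, 762 lower), 341 with the alveolar marker mean as covariate (99 higher, 242 lower) and 796 with Xist as covariate (237 higher, 559 lower). It was 0 with the 6 libraries only. Leaving out each library in turn gave 306 to 2038. With settings chosen after seeing the data, it was 1752 with the trend over transcript length removed and 0 without control library 1 and combination library 3 together (3613 had an unadjusted p under 0.05). Upper quartile factors turned the split of calls from 66.7% to 35.7% lower. Each of the 2033 genes kept its sign under both covariates and under the block, with a median of 0.956, 0.962 and 0.996 of its fold change. Of 134 genes named or listed that passed, 38 did so in all 12 fits that left out a library, none changed sign, and none passed in every other setting. DESeq2 called 1 gene against entinostat alone (Ccdc172, seen in a single combination library and chosen after its values were seen), 422 against anti-PD-1 alone and 52 in the interaction, against 0 each with edgeR. Same-numbered combination and control libraries had deviations correlated at −0.292, 0.140 and −0.147 (r across genes). These 3 values, from deviations within groups of 3 libraries, cannot show whether the numbers pair the libraries. The cause of these differences between settings was not tested. Genes under about 1 CPM rest on few counts, and intervals there are wide.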
